A study of Mus musculus with 6 samples.

Results

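In P2+CD4+ T cells sequenced for their TCR one by one, 119 of 1089 cell barcodes were left without a productive contig of at least 1 of the TCR chains. A cell barcode is the tag that marks the transcripts of 1 droplet, and a contig is a transcript assembled from the reads of that barcode. A chain was counted as present when a TRA (TCRα) or TRB (TCRβ) contig was marked productive and had a named V gene, J gene and CDR3. Of the 119 barcodes, 87 held TRB only, 29 held TRA only and 3 held neither chain, and the other 970 barcodes held both and are called paired here. Barcodes with TRB only or TRA only are together called single-chain barcodes.

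All libraries came from AireGW/+ Lyn-/- mice, which carry 1 dominant negative Aire allele and lack the tyrosine kinase Lyn, so the mice without uveitis shared both mutations with the diseased mice. Lymph nodes (LN) of mice 9 wk of age, the axillary, submandibular and eye-draining cervical ones, were pooled, and CD4+ CD8- TCRβ+ cells that bound a tetramer of the P2 peptide of the retinal protein IRBP on I-Ab were sorted. A pair of libraries, dataset 1 and dataset 2, came from pools of mice with uveitis (7 mice in one pool and 8 in the other), and 1 library came from a pool of 16 mice without uveitis. Mice were not tagged within a pool, so cells of 1 clonotype may come from 1 mouse or several.

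A T cell assembles its TCRβ gene from V, D and J segments first and its TCRα gene from V and J segments afterwards, and a complete receptor needs both. Each cell has a pair of alleles of each locus, so a rearrangement that is out of frame or carries a stop codon can be transcribed beside a working one. The CDR3 spans the V to J junction and, with its bases added or trimmed at random, serves as the mark of a clone. Surface TCRβ, on which the cells were sorted, depends on both chains, whereas the contig list holds what was read from each droplet.

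The TRB chains below were each carried by more than 1 TRB-only barcode of a library and are shown because they link the barcodes that lack TRA to paired clonotypes. They are CDR3 nucleotide sequences, with capitals marking the bases that matched neither the germline V gene nor the germline J gene.

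TRBV31/TRBJ1-3, dataset 2: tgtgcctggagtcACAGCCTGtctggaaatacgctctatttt
TRBV12-2/TRBJ2-3, dataset 2: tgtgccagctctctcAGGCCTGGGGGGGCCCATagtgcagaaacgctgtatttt
TRBV19/TRBJ1-3, dataset 2: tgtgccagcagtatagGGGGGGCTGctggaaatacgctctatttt
TRBV13-1/TRBJ2-7, dataset 2: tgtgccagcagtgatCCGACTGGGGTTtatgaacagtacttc
TRBV3/TRBJ2-7, dataset 2: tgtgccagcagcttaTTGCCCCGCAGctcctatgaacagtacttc
TRBV15/TRBJ2-3, dataset 1: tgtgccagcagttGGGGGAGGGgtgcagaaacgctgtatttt
TRBV3/TRBJ2-7, dataset 1: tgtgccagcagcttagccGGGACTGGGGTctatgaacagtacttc
TRBV23/TRBJ2-4, dataset 1: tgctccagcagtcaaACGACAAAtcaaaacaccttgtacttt
TRBV31/TRBJ1-6, without uveitis: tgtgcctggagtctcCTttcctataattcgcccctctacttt
TRBV13-2/TRBJ1-2, without uveitis: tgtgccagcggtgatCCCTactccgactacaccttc

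Barcodes lacking a chain made up 17.0% of dataset 1 (36 of 212, 95% exact interval 12.2 to 22.7), 11.2% of dataset 2 (41 of 365, 8.18 to 14.9) and 8.20% of the library without uveitis (42 of 512, 5.98 to 10.9). The share was thus higher in both uveitis libraries than without uveitis, but the intervals of dataset 2 and of the library without uveitis overlapped, and the uveitis pools differed from each other (14.1% ± 4.07, SD, n = 2 pools). With 1 pool without uveitis no test between conditions could be made, and over 3 libraries a two-sided sign-flip test cannot give a p under 0.25. All intervals cover counting error only and treat barcodes as independent, which cells of 1 clonotype are not. The libraries also differed in depth, with a median of 22, 16 and 31 UMIs (unique molecular identifiers, each marking 1 captured transcript) over all contigs of a barcode, dataset 1 first and the library without uveitis last; the part of depth in the shares was not tested. No barcode was shared between the uveitis libraries, and the 1 barcode tag that dataset 2 shared with the library without uveitis held both chains in each.

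TRB only was the most frequent class in every library. It held 11.8% of the barcodes of dataset 1 (25 of 212), 9.59% of dataset 2 (35 of 365) and 5.27% without uveitis (27 of 512). TRA only was rarer, at 4.72% (10), 1.64% (6) and 2.54% (13) in the same order. Among single-chain barcodes, TRB only accounted for 71.4% (interval 53.7 to 85.4) in dataset 1, 85.4% (70.8 to 94.4) in dataset 2 and 67.5% (50.9 to 81.4) without uveitis, so the lower bound was above 50% in 3 of 3 libraries. The barcodes with neither chain numbered 1, 0 and 2. The count of 0 among the 365 barcodes of dataset 2 allows a share of up to 0.822% by the rule of 3 counts, and the exact interval reaches 1.01%.

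**Figure D1:**
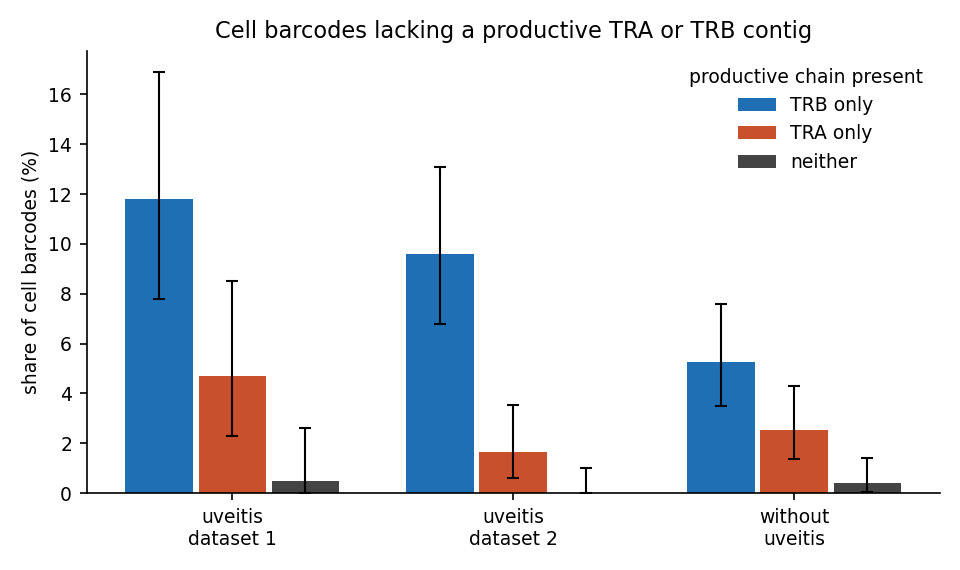
Share of the cell barcodes of each library (vertical axis, percent) with a productive TRB contig only, a productive TRA contig only or neither; bars are shares and whiskers exact 95% intervals. TRB only was the tallest class in each library, from 5.27% without uveitis to 11.8% in dataset 1.

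The UMIs of the chain that was present differed little from those of paired barcodes in the uveitis libraries. TRB-only barcodes had a median of 11 TRB UMIs in dataset 1 (quartiles 9 and 21) and 10 in dataset 2 (6 and 14.5), and paired barcodes had 11 (7 and 16.25) and 10 (6 and 17). Without uveitis the median was 11 (5.5 and 19) in TRB-only and 16 (10 and 26) in paired barcodes. For TRA the medians were 5 against 5 in dataset 1, 4.5 against 4.5 in dataset 2 and 5 against 7.5 without uveitis, TRA-only first. Single-chain medians were thus equal to paired ones in both uveitis libraries and lower without uveitis for both chains, while the ranges of single-chain and paired barcodes overlapped throughout. No TRB-only barcode of dataset 1 or dataset 2 rested on 1 UMI (lowest 2 and 4), whereas 2 of 27 without uveitis did. Of the TRA-only barcodes, 1 of 10, 2 of 6 and 2 of 13 rested on a single TRA UMI.

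In the uveitis libraries TRB reads differed between the groups, although their median TRB UMIs were equal. TRB-only barcodes had a median of 84053 TRB reads in dataset 1, against 62339 in paired barcodes, and 71164 against 51781.5 in dataset 2. Without uveitis the TRB-only median was lower, 35989 against 44384 reads, as it was for UMIs. Summed over all contigs of a barcode, TRB-only barcodes had fewer reads than paired ones in each library, with medians of 153925 against 162721.5, 82355 against 87307.5 and 81701 against 120162. Median TRA reads were lower in TRA-only than in paired barcodes in dataset 1 (26038 against 39201) and without uveitis (10295 against 21841) and higher in dataset 2 (35589 against 21732.5), where TRA-only barcodes numbered 6.

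**Figure D2:**
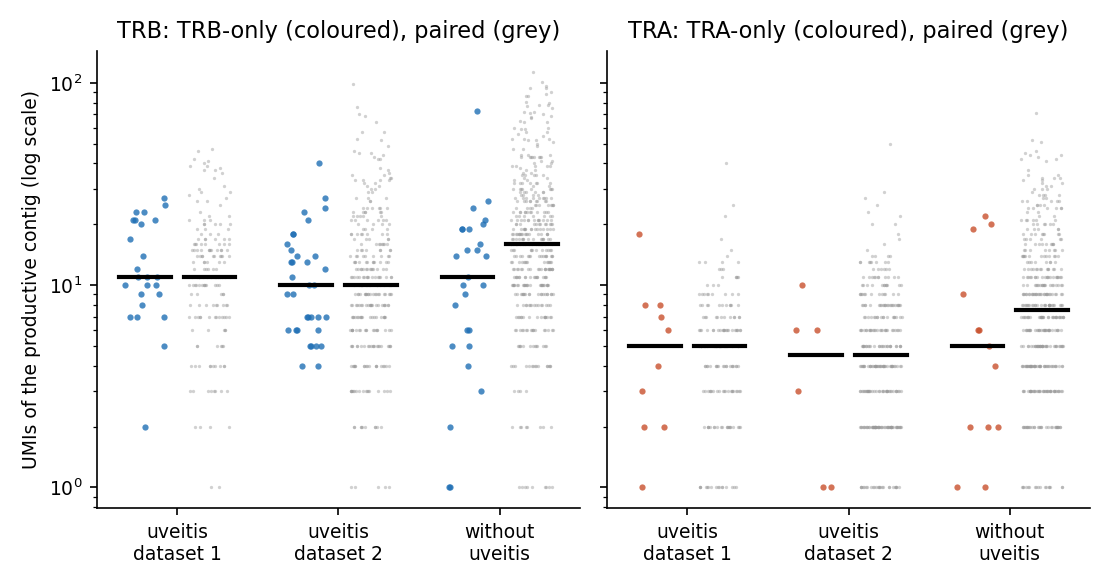
UMIs of the productive TRB contig (left) and TRA contig (right) on a log axis, 1 point per barcode, for single-chain barcodes in colour and paired barcodes in grey in each library; black bars are medians. The TRB medians are 11 and 11 in dataset 1, 10 and 10 in dataset 2, and 11 and 16 without uveitis, single-chain first.

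TRA was the chain with fewer UMIs in paired barcodes as well. The TRA contig of a paired barcode rested on 1 UMI in 16 of 176 barcodes of dataset 1, 25 of 324 of dataset 2 and 17 of 470 without uveitis. For TRB these counts were 2, 5 and 9. Whether few UMIs of a chain bear on its absence was not tested.

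A second productive contig of the present chain was about as frequent in TRB-only as in paired barcodes, and was not found in TRA-only barcodes. It was found in 1 of 25, 3 of 35 and 1 of 27 TRB-only barcodes, against 10 of 176, 29 of 324 and 18 of 470 paired barcodes for TRB. None of the 29 TRA-only barcodes held 2 productive TRA contigs, a count that allows a share of up to 10.3% by 3 counts (exact bound 11.9%), against 19 of 176, 27 of 324 and 78 of 470 paired barcodes. Per library the exact bounds of the TRA-only share were 30.85%, 45.93% and 24.71%. The paired shares of 10.8%, 8.33% and 16.6% lay below them, so no difference was detectable within a library.

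Every TRA-only barcode nevertheless held a TRB contig, which was not productive. This was so in 10 of 10 barcodes of dataset 1, 6 of 6 of dataset 2 and 13 of 13 without uveitis, each with at least 2 UMIs. Among paired barcodes, 53.4% (94 of 176), 3.09% (10 of 324) and 61.9% (291 of 470) listed a non-productive TRB contig beside the productive one. The lower bounds for TRA-only barcodes, 69.1%, 54.1% and 75.3%, were above the upper bounds for paired barcodes, 61.0%, 5.60% and 66.3%, in 3 of 3 libraries. These shares are not alike by definition, however. Any TRB contig of a TRA-only barcode is non-productive, whereas a paired barcode needs a contig beyond its productive one. How much of the gap comes from this definition was not tested. Dataset 2 listed few incomplete contigs of any kind: 13 of its 800 contigs were not full length, against 186 of 676 in dataset 1 and 435 of 1648 without uveitis.

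These TRB contigs were not faint. They had a median of 12.5, 5.5 and 10.5 UMIs, with the libraries in the same order. By the highest per barcode the medians were 12.5, 5.5 and 11, against 6, 3.5 and 8 for non-productive TRB contigs of paired barcodes. The TRB contig had more UMIs than the productive TRA contig of the same barcode in 10 of 10, 4 of 6 and 9 of 13 barcodes. In paired barcodes the productive TRB also had the higher median, 11, 10 and 16 UMIs against 5, 4.5 and 7.5 for TRA. The share of paired barcodes with more TRB than TRA UMIs was not computed. The highest, without uveitis, was TRBV2/TRBJ2-7 with 115 UMIs and 106267 reads, beside a TRAV10/TRAJ43 chain of 19 UMIs. In dataset 1 a TRBV1/TRBJ2-5 contig had 50 UMIs and 147707 reads beside a TRAV5N-4/TRAJ52 chain of 2 UMIs. The highest of dataset 2, TRBV20/TRBJ2-7, had 13 UMIs beside a TRAV12D-2/TRAJ15 chain of 1 UMI.

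**Figure D3:**
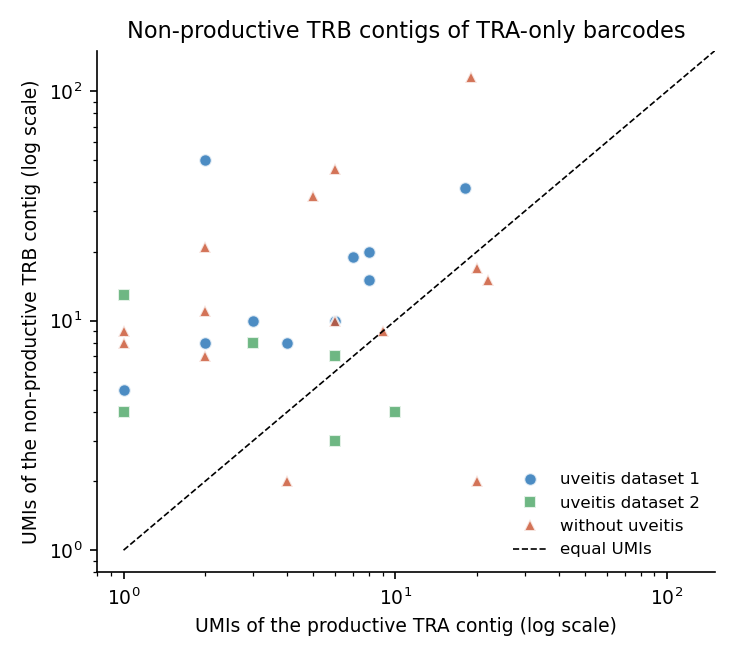
Each point is a non-productive TRB contig of a TRA-only barcode, by the UMIs of the productive TRA contig of that barcode (horizontal) and its own UMIs (vertical), both on log axes; the dashed line marks equal UMIs. All 10 points of dataset 1 lie above the line, and the highest point, of the library without uveitis, has 115 UMIs.

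In dataset 1 and without uveitis, but not in dataset 2, the TRB contigs of TRA-only barcodes differed in kind from the non-productive TRB contigs of paired barcodes. Of the 30 in TRA-only barcodes, 20 had a V and a J gene but no CDR3, 8 had a J gene without a V gene, 1 had a CDR3 and 1 had neither gene. Of the 405 in paired barcodes, 355 (87.7%) had a J gene without a V gene and 30 (7.41%) had both genes without a CDR3. The library without uveitis gave 299 of these 405. Contigs with both genes and no CDR3 were 9 of 10 in TRA-only against 5 of 96 in paired barcodes of dataset 1. Without uveitis they were 8 of 14 against 20 of 299. In dataset 2 they were 3 of 6 against 5 of 10, and those with a J gene but no V gene 3 of 6 against 3 of 10. The contigs of TRA-only barcodes with both genes and no CDR3 were also long, with a median of 1049 bases in dataset 1 (9 contigs), 832 in dataset 2 (3) and 1020 without uveitis (8), where productive TRB contigs had 693, 666 and 687.5. Of such contigs in paired barcodes the median was 734, 671 and 655 bases.

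The same V and J pair recurred among them. TRBV3 with TRBJ2-7 made up 3 of the 10 non-productive TRB contigs of dataset 1, beside TRAV9-1/TRAJ34, TRAV4-4-DV10/TRAJ49 and TRAV14N-1/TRAJ34, and 1 of the 14 without uveitis, beside TRAV6N-5/TRAJ31. The 4 contigs were 1049 to 1084 bases long. They were picked out after their values were seen. Among productive chains of paired barcodes of dataset 1, TRBV3 was in 30 of 176 and TRBJ2-7 in 48 of 176. A CDR3 that joined both genes was in 14 of these barcodes. The share of the pair over all paired barcodes was not computed. Over all 3 libraries the contigs with a named V gene used 12 TRBV genes, and TRBV1 occurred once.

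TRB-only barcodes listed a non-productive TRA contig in 22 of 25 barcodes of dataset 1, 11 of 35 of dataset 2 and 24 of 27 without uveitis. In paired barcodes this was so in 41 of 176, 20 of 324 and 104 of 470. The lists are not alike at low UMIs, however. No non-productive TRA or TRB contig of 1 UMI was listed where the barcode had a productive contig of the same chain (0 of 151, 0 of 30 and 0 of 420 contigs), while 13 of 35, 2 of 18 and 10 of 43 had 1 UMI where it had none. With 2 UMIs or more required in both groups, the shares were 40.0% (10 of 25) against 23.3% in dataset 1, 25.7% (9 of 35) against 6.17% in dataset 2 and 59.3% (16 of 27) against 22.1% without uveitis, TRB-only first. TRB-only barcodes stayed higher in 3 of 3 libraries, and the intervals did not overlap in dataset 2 (12.5 to 43.3 against 3.81 to 9.37) and without uveitis (38.8 to 77.6 against 18.5 to 26.2) but did in dataset 1 (21.1 to 61.3 against 17.3 to 30.3). For TRA-only barcodes this limit changed no count. As with TRB, any TRA contig of a TRB-only barcode is non-productive by definition, whereas a paired barcode needs a contig beyond its productive one. The part of this definition in the higher TRB-only shares was not tested.

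**Figure D4:**
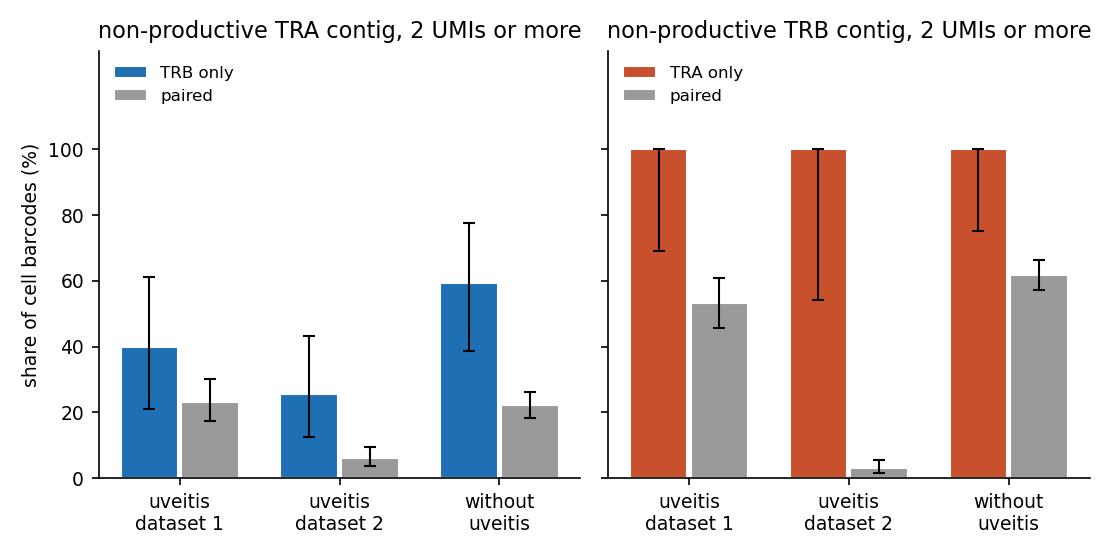
Share of barcodes (vertical axis, percent) with a non-productive TRA contig (left, TRB-only in blue) or TRB contig (right, TRA-only in red) of at least 2 UMIs, with paired barcodes of the same library in grey; whiskers are exact 95% intervals. The red bars stand at 100% in each library, and the grey TRB bars at 53.4%, 3.09% and 61.9%.

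In most TRB-only barcodes that held one, the non-productive TRA contig had fewer UMIs than the productive TRB contig. In paired barcodes the productive TRA also had the lower median, 5, 4.5 and 7.5 UMIs against 11, 10 and 16 for TRB. In the uveitis libraries no non-productive TRA contig had as many UMIs as the productive TRB. Without uveitis, of the 24 barcodes that held such a contig, 1 had more and 3 had as many. Taking the highest such contig of each barcode, the median was 1, 2 and 3 UMIs in the 3 libraries, the one without uveitis last. Of the 61 contigs, 20 had a J gene without a V gene, 18 had both genes but no CDR3, 16 had a CDR3, 6 had a V gene only and 1 had neither.

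A pair of contig types stood out after their values were seen. Without uveitis, a TRAV3-3 contig with no J gene was found in 5 of 27 TRB-only barcodes, with 4 to 10 UMIs, and in 1 of 470 paired barcodes. The uveitis libraries listed it in no TRB-only barcode. In dataset 1, a TRA contig with a J gene but neither a V nor a C gene was found in 6 of 25 TRB-only barcodes and 1 of 176 paired barcodes, with 460 to 1410 reads in the TRB-only barcodes and 1 or 2 UMIs. Only 1 of these 6, with TRAJ45, had 2 UMIs, as did the one of the paired barcode. The others had 1 UMI, at which no non-productive contig was listed beside a productive one of the chain. The counts of 6 and 1 are thus not comparable.

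Many single-chain barcodes carried the CDR3 of a paired clonotype. The TRB CDR3 of a TRB-only barcode was found in a paired barcode of the same library in 15 of 25 barcodes of dataset 1 (60%, 38.7 to 78.9), 27 of 35 of dataset 2 (77.1%, 59.9 to 89.6) and 6 of 27 without uveitis (22.2%, 8.62 to 42.3). The same measure in paired barcodes, the share whose TRB CDR3 was in another paired barcode, was 55.1% (97 of 176), 72.5% (235 of 324) and 23.8% (112 of 470). TRB-only barcodes thus lay within 5 percentage points of paired barcodes in each library, and the paired share lay inside the interval of the TRB-only share in 3 of 3.

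The TRA CDR3 of TRA-only barcodes was found in 3 of 10, 3 of 6 and 2 of 13, against 47.2% (83 of 176), 70.7% (229 of 324) and 18.7% (88 of 470) of paired barcodes. The paired share lay inside each interval (6.67 to 65.2, 11.8 to 88.2 and 1.92 to 45.5), so no difference was detectable with so few TRA-only barcodes. Counted once per distinct CDR3, 12 of 29 present chains of dataset 1, 15 of 26 of dataset 2 and 6 of 38 without uveitis were in a paired clonotype. The share per distinct CDR3 was not computed for paired barcodes, so these counts cannot be set against them.

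**Figure D5:**
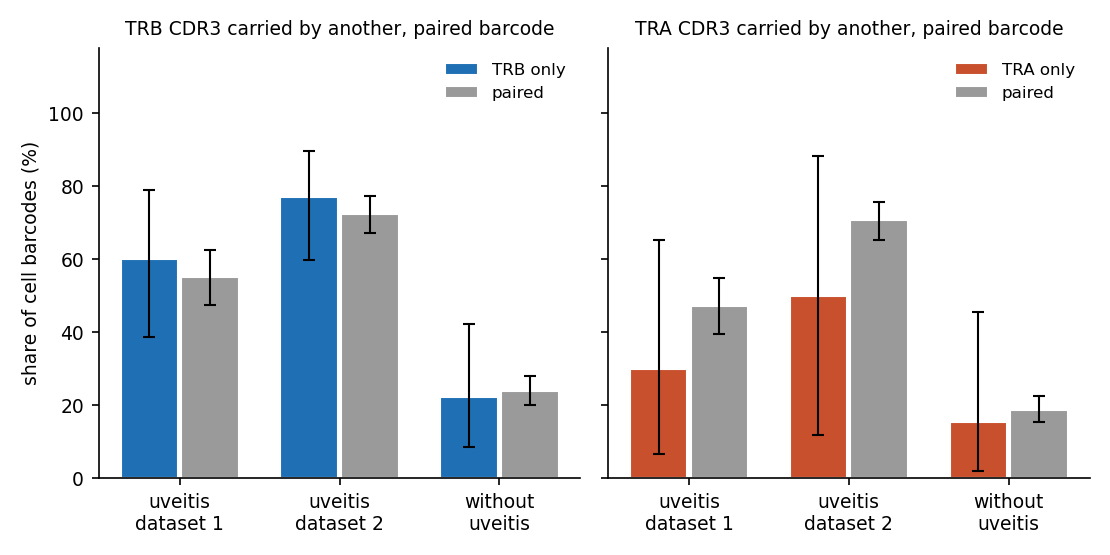
Share of barcodes (vertical axis, percent) whose TRB CDR3 (left) or TRA CDR3 (right) was carried by a paired barcode of the same library, for single-chain barcodes in colour and, for paired barcodes in grey, by another paired barcode; whiskers are exact 95% intervals. The TRB bars stand side by side at 60% and 55.1%, 77.1% and 72.5%, and 22.2% and 23.8%.

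The present chain of matched TRB-only barcodes had a median of 14 UMIs in dataset 1, 9 in dataset 2 and 19 without uveitis, against 11, 13.5 and 10 in unmatched ones, so neither group was higher in all 3 libraries. The present TRA of the 8 matched TRA-only barcodes had between 1 and 18 UMIs.

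The most frequent chain was TRBV31/TRBJ1-3 of dataset 2. It was carried by 9 TRB-only barcodes, with 4, 5, 6, 9, 13, 14, 14, 27 and 40 TRB UMIs, and by 37 paired barcodes of 1 clonotype, with 2 to 99 TRB UMIs. The median was 13 in both groups. The partner of this chain in all 37 paired barcodes was TRAV9-4/TRAJ31, which had a median of 3 UMIs there and rested on 1 UMI in 7 of them. The CDR3 of the partner is shown because 3 of the 9 TRB-only barcodes held it on a TRA contig that was not marked productive, with 1, 3 and 4 UMIs.

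TRAV9-4/TRAJ31, dataset 2: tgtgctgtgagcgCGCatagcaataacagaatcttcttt

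These contigs were 760, 762 and 537 bases long, where the productive contigs with this CDR3 had a median of 720. A further TRB-only barcode of dataset 2, TRBV31/TRBJ1-1, held the CDR3 of its paired partner TRAV12-2/TRAJ31 on a non-productive contig of 347 bases, against a median of 701 for productive contigs with it. Of the 48 matched TRB-only barcodes of the 3 libraries, 25 held a non-productive TRA contig, and in 4, all in dataset 2, it carried the CDR3 of a partner. In 2 more it had the V and J genes of a partner but no CDR3, namely TRAV12-2/TRAJ47 beside TRBV23/TRBJ2-4 in dataset 1 and TRAV13-2/TRAJ50 beside TRBV20/TRBJ1-4 in dataset 2.

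The other repeated chains of dataset 2 were smaller. TRBV12-2/TRBJ2-3 was in 3 TRB-only barcodes, with 5, 7 and 10 UMIs, and in 34 paired barcodes with TRAV9-1/TRAJ31, with a median of 13 UMIs. TRBV19/TRBJ1-3 was in 3, with 6, 7 and 12 UMIs, and in 16 paired barcodes with TRAV9-4/TRAJ31. TRBV13-1/TRBJ2-7 was in 3, with 7, 13 and 15 UMIs, and in 11 paired barcodes with TRAV7-1/TRAJ33. For these, the TRB UMIs of each TRB-only barcode lay within the range of the paired barcodes. TRBV3/TRBJ2-7 was in 2 TRB-only barcodes and 7 paired ones, and TRBV4/TRBJ2-7 in 1 and 18.

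In dataset 1, TRBV15/TRBJ2-3 was in 5 TRB-only barcodes, with 5, 7, 17, 21 and 23 UMIs, and in 8 paired barcodes, 7 of them with TRAV16N/TRAJ15 and with 12 to 41 TRB UMIs in all. A pair of the TRB-only barcodes fell below that range. Another pair held the same non-productive TRA contig, TRAV12-3/TRAJ38, with a CDR3 that no productive contig of the library carried, at 1 and 2 UMIs. TRBV3/TRBJ2-7 was in 2 TRB-only barcodes (14 and 27 UMIs) and 14 paired ones, 12 of them with TRAV12D-3/TRAJ13. TRBV23/TRBJ2-4 was in 2 TRB-only barcodes (21 and 23 UMIs) and 9 paired ones, 8 of them with TRAV12-2/TRAJ47.

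Without uveitis, TRBV31/TRBJ1-6 was in 2 TRB-only barcodes (9 and 19 UMIs) and in 18 paired barcodes with TRAV9N-4/TRAJ12. That same TRA was in 1 TRA-only barcode, with 2 UMIs, and in 21 paired barcodes in all. TRBV13-2/TRBJ1-2 was in 2 TRB-only barcodes, with 20 and 26 UMIs, and in 1 paired barcode with TRAV3-3/TRAJ52, where it had 57 UMIs. No TRA CDR3 was repeated among the TRA-only barcodes of a library.

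Chains carried by 10 or more barcodes of a library, paired or not, lacked TRA in 9 of 40 barcodes of dataset 1 (22.5%), 19 of 135 of dataset 2 (14.1%) and 2 of 20 without uveitis (10.0%). Rarer TRB chains lacked it in 16 of 161 (9.94%), 16 of 224 (7.14%) and 25 of 477 (5.24%). The common chains were higher in 3 of 3 libraries with overlapping intervals. The limit of 10 was set after the values were seen. With a limit of 5 the shares were 19.6% and 10.3%, 12.1% and 6.88%, and 6.67% and 5.31%, common chains first. With a limit of 2 they were 12.9% and 11.8%, 10.3% and 8.33%, and 5% and 5.57%, so the direction did not hold without uveitis.

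The deposited clonotype identifiers kept single-chain barcodes apart. All 35, 41 and 40 single-chain barcodes had an identifier, forming 29, 26 and 38 identifiers, and none of these was shared with a paired barcode. Where the present chain matched exactly 1 paired clonotype, defined by the V gene, J gene and CDR3 nucleotides of both chains, the barcode could be placed, which was so for 4 of 18 matched barcodes of dataset 1, 25 of 30 of dataset 2 and 7 of 8 without uveitis. The CDR3 of the other matched barcodes was in more than 1 paired clonotype. Matched by V gene and J gene as well, 6 in place of 4 barcodes of dataset 1 could be placed, with the counts of the other libraries the same.

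Adding those barcodes to their clonotypes changed the share of cells in expanded clonotypes, those of more than 1 cell, by little. It was 29.0% (51 of 176) in paired barcodes of dataset 1 and 32.8% (59 of 180) with the added ones. In dataset 2 it went from 67.3% (218 of 324) to 69.9% (244 of 349), and without uveitis from 17.0% (80 of 470) to 18.9% (90 of 477). The number of expanded clonotypes went from 13 to 17, from 36 to 37 and from 21 to 24. Each added barcode joins a clonotype by its choice, so the share can only rise.

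V and J genes are given with GRCm38 coordinates, TRB genes on chromosome 6 and TRA genes on chromosome 14. The TRBV genes found most often in TRB-only barcodes of dataset 1 were TRBV15 (chr6:41141188-41141658), in 7 of 25 against 16 of 176 paired barcodes, TRBV3 (chr6:41048290-41048828), in 5 against 30, and TRBV23 (chr6:41216073-41216526), in 3 against 11. TRBV15 thus took 28.0% of TRB-only barcodes (12.1 to 49.4) and 9.09% of paired ones (5.29 to 14.3), with overlapping intervals, and 5 of its 7 barcodes carried 1 CDR3.

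In dataset 2 the order was TRBV31 (chr6:41557691-41558452, the TRBV gene that lies downstream of the constant genes in inverted orientation), in 10 of 35 against 54 of 324, TRBV3, in 7 against 26, and TRBV20 (chr6:41188273-41188977), in 3 against 37, with TRBV12-2, TRBV19 and TRBV13-1 also in 3. Of the 10 TRBV31 barcodes 9 carried 1 CDR3. Without uveitis it was TRBV13-2 (chr6:41121396-41121832), in 6 of 27 against 58 of 470, TRBV31, in 4 against 44, and TRBV19 (chr6:41178375-41179048), in 4 against 35. For each of these genes the intervals of TRB-only and paired barcodes overlapped.

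Of the J genes, TRBJ1-3 (chr6:41534323-41534376) led in dataset 2, in 13 of 35 TRB-only barcodes (37.1%, 21.5 to 55.1) and 63 of 324 paired ones (19.4%, 15.3 to 24.2), with 3 distinct CDR3s. TRBJ2-7 (chr6:41543810-41543856) and TRBJ2-3 (chr6:41543223-41543271) followed there, in 8 and 6 barcodes. In dataset 1 TRBJ2-7, TRBJ2-3 and TRBJ2-5 (chr6:41543453-41543501) were in 6, 5 and 4 of 25 (TRBJ2-1 also in 4), and without uveitis TRBJ2-7, TRBJ1-4 (chr6:41534811-41534861) and TRBJ1-6 (chr6:41535554-41535606) were in 4 each of 27, as was TRBJ1-2. Genes of the TRBJ2 cluster were in 22 of 25, 16 of 35 and 13 of 27 TRB-only barcodes and in 80.1%, 65.7% and 63.4% of paired ones. The TRB-only share was higher in dataset 1 and lower in the other libraries, with overlapping intervals in each.

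TRA-only barcodes spread over many genes. The 10 of dataset 1 used 9 TRAV and 9 TRAJ genes, the 6 of dataset 2 used 6 and 6, and the 13 without uveitis used 12 and 12. The genes found more than once were TRAV9-4 (chr14:53676141-53676630) and TRAJ34 (chr14:54184699-54184756), each in 2 barcodes of dataset 1, and TRAV9N-4 (chr14:53294341-53295030) and TRAJ31 (chr14:54187895-54187951), each in 2 without uveitis. The TRAV9 family was in 3 of 10, 0 of 6 and 4 of 13 TRA-only barcodes, against 23.9%, 45.4% and 15.7% of paired barcodes, and the TRAV12 family in 1, 2 and 2, against 23.3%, 16.7% and 10.6%. TRBV13 genes were in 1 of 25, 4 of 35 and 7 of 27 TRB-only barcodes, against 21.0%, 14.5% and 20.2% of paired barcodes. For each of these families the intervals of single-chain and paired barcodes overlapped in every library.

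The CDR3 of the present chain had a median of 42 bases for TRB in each library, in TRB-only and paired barcodes alike. For TRA the medians were 39, 37.5 and 39 bases in TRA-only barcodes and 39, 39 and 42 in paired ones. The bases between the V and J parts of the CDR3, a rough count of D and added bases, had medians of 9, 10.5 and 9 over the distinct TRB CDR3s of TRB-only barcodes and 11, 10 and 9 over those of paired barcodes. For TRA these medians were 3, 5 and 3 against 3, 3 and 3.

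The TRB-only and the TRA-only barcode with the most UMIs of the present chain were picked in each library. In dataset 1 they were a TRBV3/TRBJ2-7 chain of 27 UMIs and a TRAV9-1/TRAJ34 chain of 18. In dataset 2 they were a TRBV31/TRBJ1-3 chain of 40 and a TRAV12-2/TRAJ31 chain of 10. Without uveitis they were a TRBV13-2/TRBJ2-7 chain of 73 UMIs, in no paired barcode, and a TRAV9N-4/TRAJ22 chain of 22, beside a non-productive TRBV31/TRBJ2-7 contig of 15.

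The 3 barcodes with neither chain still held TCR contigs. The one of dataset 1 had 6 contigs and 12 UMIs, of which a non-productive TRBV1/TRBJ1-3 contig had 7. Those without uveitis had 2 contigs each, with 7 and 9 UMIs, and a TRB contig without a V gene had 6 and 7 of them.

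Few present chains were shared between libraries. The TRAV9-4/TRAJ31 CDR3 printed above was in 1 TRA-only barcode of dataset 1, with 7 UMIs, and also in 37 paired barcodes of dataset 2 and 3 without uveitis. A TRAV9-2/TRAJ31 CDR3 of a TRA-only barcode without uveitis was in 1 paired barcode of dataset 2. No TRB CDR3 of a TRB-only barcode was in a paired barcode of another library (0 of 25, 0 of 35 and 0 of 27). The same share was not computed for paired barcodes, so these counts do not tell whether little sharing is particular to single-chain barcodes.

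Contigs of other receptor chains were few. None of the 119 barcodes held a productive TRG, TRD, IGH, IGK or IGL contig, which allows a share of up to 2.52% by 3 counts (exact bound 3.05%). No paired barcode held one either, so this was not particular to the barcodes lacking a chain. Non-productive contigs of these chains were in 7 of 25 TRB-only barcodes, 3 of 176 paired barcodes and the barcode with neither chain of dataset 1, and in no barcode of the other libraries; all but 1, a TRG contig of 11 UMIs and 1625 reads, had 1 UMI, and their part in the share that lacked TRA was not tested. No TRA-only barcode carried the TRAV11/TRAJ18 chain of iNKT cells or the TRAV1/TRAJ33 chain of MAIT cells, and no paired barcode did.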

How the data were processed

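The 3 TCR libraries were analysed; the 3 mRNA libraries of the series were not used here. Libraries were prepared by the submitters with the 10x Genomics 5′ kit (version 1.1), and the authors ran Cell Ranger (version 3; GRCm38 and mm10 in the submitters' processing notes). Deposited values were counts of reads and UMIs per contig, not normalized, with all listed contigs of high confidence and all barcodes called cells. No doublets were removed. Of several productive contigs of a chain, the one with most UMIs, then most reads, was used. Medians, quartiles and exact Clopper-Pearson 95% intervals were computed with Python 3.11.15, pandas 2.3.3, numpy 2.4.6 and scipy 1.17.1; no test was made. On simulated contigs, 19 of 19 quantities were recovered. By name, 173 of 176 V or J genes were found in the GENCODE annotation (vM21), whose transcripts gave germline bases (shortest match 6). Barcodes and lists were chosen with earlier results of these data known. Named chains were CDR3s of more than 1 single-chain barcode or of an expanded paired clonotype (21, of which the first 12 by barcodes); named genes were the 3 most frequent per library and chain. Alternatives changed UMI minimums, the productive call, the matching key and the libraries used.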

Additional observations from a re-analysis of the deposited data

Results flagged for a closer look

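Median TRB reads were higher in TRB-only than in paired barcodes in both uveitis libraries, by 21714 in dataset 1 and 19382.5 in dataset 2, and lower without uveitis, by a difference of -8395. This was picked out because the sign was opposite between conditions; the difference was not tested. Without the barcodes of TRBV31/TRBJ1-3 the medians of dataset 2 were 70486.5 and 50417.

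Dataset 1 listed 17 contigs of TRG, TRD or immunoglobulin chains, and the other libraries none. They were picked out because such chains lie outside the TRA and TRB contigs studied; none was productive.

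The library without uveitis held 6 productive contigs that Cell Ranger assigned to several chains at once (Multi), and the other libraries 0. They joined a TRDV gene to a TRAJ gene and TRAC, and 3 of them were in TRB-only barcodes, TRDV2-2/TRAJ37 with 48 UMIs and TRDV1/TRAJ53 with 14 and 6.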

How the results depend on the processing

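Of 111 values recomputed under an alternative other than leaving out a library, 93 stayed within the limit set for them and 18 moved further. The limit was the exact interval of the reported share. For combined uveitis values and differences of medians it was the SD between libraries. For reads in place of UMIs it was the sign of the difference. The count that changed sign was 0, but shares have no sign and a difference of 0 cannot change its own. Values with a uveitis library left out were not counted, because they could not lie further away than the SD between the uveitis libraries. Requiring 2 UMIs for a chain raised the share lacking one to 25.5%, 19.2%, 13.1% and 21.5% (dataset 1, dataset 2, without uveitis, both uveitis libraries), and the share with neither chain among these to 4.03% in the uveitis libraries. Reads in place of UMIs gave differences of medians of -13163 and 13856.5 for TRA and 21714 and 19382.5 for TRB in dataset 1 and dataset 2, and summed UMIs gave -2 for TRB without uveitis. A non-productive TRA contig of 2 UMIs or more was in 40.0% and 59.3% of TRB-only barcodes of dataset 1 and without uveitis, and one with V and J named in 48.0% and 40.7%. A non-productive TRB contig with V and J named was in 50.0%, 61.5% and 75% of TRA-only barcodes of dataset 2, without uveitis and both uveitis libraries. Per distinct CDR3, TRBV31 made up 10.0% of TRB-only chains of dataset 2. The cause of these changes was not tested beyond each alternative's own construction. Leaving out a uveitis library gave 11.2% to 17.0% for the share lacking a chain, 51.4% to 73.2% for the CDR3 match and 32.8% to 69.9% for the expanded share. Chosen after seeing the data, counting Multi contigs with TRAC as TRA gave 7.62% lacking a chain without uveitis, and leaving out TRBV31/TRBJ1-3 gave 10.0% in dataset 2; the split per distinct CDR3 was also added then.

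No paired analysis was possible because no result comes from a test, and the shared numbers pair each TCR library with the mRNA library of the same cells, which was not used here. Precision is limited by the number of barcodes, 6 to 13 TRA-only per library, and by the TRA depth, a median of 4.5 to 7.5 UMIs in paired barcodes.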
